A study of Homo sapiens with 7 samples.

Results

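The genes followed here encode the human enzymes that shorten poly(A) tails, together with their core partners. They comprise CNOT1, CNOT2, CNOT3, CNOT6, CNOT6L, CNOT7 and CNOT8 of the CCR4-NOT complex, PAN2 and PAN3, and PARN. They were taken by gene symbol from the sense rows of 3 tables of read counts and make up 10 of the 16044 genes listed there. Batch 1 and the double KD each had a table that listed all 10, and batch 2 had a table that listed 9, where PAN3 had no sense polyadenylation site (PAS). The RNA came from HEK293 cells, an established line of human embryonic kidney origin. Batch 1 consisted of cells given a control siRNA (siCtrl) or an siRNA against Star-PAP (siStarPAP), PAPa (siPAPa) or PAPg (siPAPg), and cells given siRNAs against PAPa and PAPg together (siPAPag) stood in a table of their own beside the same siCtrl library. Batch 2 consisted of a second siCtrl and a second siStarPAP library, made with 3′READS+ instead of 3′READS. Each condition had 1 library per batch and only siCtrl and siStarPAP had 2 in all, so intervals given below for single libraries cover counting error only.

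CCR4-NOT is the main cytoplasmic deadenylase of mammalian cells. CNOT1 is its scaffold, CNOT2 and CNOT3 form a module that docks RNA-binding partners, and the activity comes from paired nucleases, one of the CCR4 type (CNOT6 or CNOT6L) and one of the CAF1 type (CNOT7 or CNOT8). PAN2 is a nuclease that works with PAN3, which brings it to RNA, and this pair is known for the first trimming of long tails. PARN is a separate nuclease that acts on tails of mRNAs and trims the ends of many non-coding RNAs. These enzymes remove what the nuclear poly(A) polymerases (PAPs) knocked down in the study add, and the comparisons ask how the genes for tail removal were expressed, and which PASs they used, when a PAP was depleted.

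The 3′READS method captures RNA next to its tail, and a read with untemplated Ts beyond the cleavage site (a PASS read) marks a PAS. Each read comes from the end of an RNA, though after PCR several reads can stem from the same RNA. Levels in RPM, the reads scaled to a fixed total of PASS reads in each library, therefore need no division by length. Sense reads numbered between 2347168 (siStarPAP, batch 2) and 16190666 (siPAPa) per library. TUT1, which encodes Star-PAP, was at 1.66% of siCtrl in siStarPAP of batch 1 (95% interval 0.198 to 6.20%), while its 6 and 4 reads in batch 2 could not show a KD. PAPOLA, which encodes PAPa, was at 7.70% (3.80 to 14.3%) in siPAPa and 6.24% (2.60 to 12.9%) in siPAPag. In siStarPAP PAPOLA was at 42.8% (28.7 to 63.2%) in batch 1 and 89.8% (55.8 to 143%) in batch 2. PAPOLG, which encodes PAPg, had 5 reads in siCtrl, 15 in the library labelled siPAPg and 6 in siPAPag, so its counts did not check these labels. On few reads, PAPOLG was at 387% of siCtrl (147 to 1282%) in siStarPAP of batch 1 and 248% (116 to 564%) in batch 2. In siPAPa it was at 328% (128 to 1071%). The study reports immunoblots in which each KD lowered its own PAP and did not appear to change the others. Of 7 markers of HEK293 cells, KRT18 reached between 783 and 3927 RPM, VIM between 42.8 and 152 RPM and NEFL between 9.85 and 41.6 RPM in the 7 libraries, while NEFM (0.235 to 11.8 RPM), KRT8 (0.396 to 3.24 RPM) and PAX2 (0 to 2.77 RPM) were low and LHX1 (at most 1.40 RPM) was not listed in batch 2. Of markers of liver, blood, fibroblasts and endothelium, ALB, AFP, PTPRC, CD3E, HBB, COL1A2 and PECAM1 had no listed sense PAS, and APOA1 (at most 3.85 RPM), COL1A1 (at most 2.38 RPM) and VWF (at most 0.532 RPM) were low. The median gene with over 50 reads in a pair changed by -0.45 (siStarPAP, batch 1), -0.26 (siPAPa), -0.33 (siPAPg), -0.38 (siPAPag) and -0.16 (siStarPAP, batch 2) on the log2 scale of RPM, and changes of single genes are given relative to this median gene. A total of RNA from a culture cannot tell fewer cells with a transcript from less of it per cell.

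The 10 genes had 70 sense PASs over the 3 tables. Of these, 45 held at least 10% of the reads of their gene in a library with at least 30 such reads, or changed in use by the rule given further on. Those on which the results turn are shown as 30 bases of the GRCh37 genome, the same build as hg19, on the strand of the gene, covering 34 to 5 bases upstream of the PAS. Capitals mark a poly(A) signal, the hexamer that the cleavage machinery reads. The first set gives 3 of the 5 PASs in the 3′UTR of CNOT6, called proximal, middle and distal here, because the double KD shifted reads among them (chr5:180003786-180003815, chr5:180004936-180004965 and chr5:180005319-180005348, plus strand).
CNOT6 proximal: atccctaaaatgcAATAAAaactagtatgt
CNOT6 middle: catagccaaccAATAAAttcagtatctgtt
CNOT6 distal: tgacatattttaAATAAAtgcttttaaata

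The second set gives PASs of CNOT1 on the minus strand of chromosome 16. The first lies in an exon of a non-coding transcript near the 5′ end of the gene (chr16:58657163-58657192), and the others are the proximal (chr16:58554604-58554633) and distal (chr16:58553860-58553889) PAS of the 3′UTR, whose order of use differed between the batches.
CNOT1 internal: accaaatgtatatctcacAATAAAtattac
CNOT1 proximal: cattttgaacttgtgtaAATACAtgaaaga
CNOT1 distal: catactgtagctaaccATTAAAgtcatgac

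The third set holds PASs of PARN, also on the minus strand of chromosome 16, of which the distal was called in the 4 knockdowns of batch 1 and the double table. They are the proximal (chr16:14529899-14529928) and distal (chr16:14529563-14529592) PAS of the 3′UTR.
PARN proximal: tgggggatgtacgAGTAAAaaggttaactt
PARN distal: tccaaaagatgaaaATTAAAaacattttca

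The fourth set shows PASs of CNOT3 on the plus strand of chromosome 19 that the deposited table calls intronic and the annotation places in the UTR of another transcript (chr19:54658189-54658218 and chr19:54658589-54658618), followed by the PAS of the last exon, 9 bases past the annotated end (chr19:54659394-54659423). The fifth holds PASs of CNOT6L on the minus strand of chromosome 4, an intronic one (chr4:78647164-78647193) and the most proximal of the 3′UTR (chr4:78639221-78639250). The last is the 3′UTR PAS of PAN2 on the minus strand of chromosome 12 (chr12:56710725-56710754), which carries most reads of the gene with the widest range of levels.
CNOT3 internal 1: tgcagttgttatgaagATTAAAtgagttaa
CNOT3 internal 2: cgtcaccAATAAAatgtccctgcagagtgc
CNOT3 last exon: atttatgAATAAAtagttttatatgacggc
CNOT6L intronic: taagtatgcacctaAATATAagtaggttta
CNOT6L proximal: ccatttattAATAAAaaacttttttaatag
PAN2 main: aaataaaAATAAAatatcgtttgttattta

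In the 40 bases that end at the PAS, AATAAA was found at 35 of the 70 PASs (50%), against 45.2% of all 72453 sense PASs of the 3 tables, and ATTAAA without it at 15.7%, as in all PASs (15.7%). Another 14 of the 70 held only a weaker form (20%, against 17.2% of all PASs), with AGTAAA at 5 of them, GATAAA at 3, AATATA at 3, and TATAAA, then AATACA and last AATAGA at 1 each, while CATAAA was at 0. The search was on the strand of the gene, and a PAS with several forms was counted once, under the first in the order AATAAA, then ATTAAA, then the others. Both strong and weak forms occur within one gene. The 3 PASs of CNOT6 shown above carry AATAAA, while the proximal 3′UTR PAS of CNOT1 carries AATACA and that of PARN carries AGTAAA. A match in these windows is a description of the letters and was not related to the changes by a test.

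In siCtrl of batch 1 the levels spanned from 1.23 RPM for PAN2 (exact Poisson 95% interval 0.670 to 2.06) to 80.3 RPM for CNOT6 (75.2 to 85.7). CNOT2 followed at 62.3 RPM (57.8 to 67.1), and CNOT3 at 36.1 RPM (32.7 to 39.8) and CNOT1 at 31.8 RPM (28.6 to 35.2) had overlapping intervals. CNOT7 was next at 12.3 RPM (10.3 to 14.5). Below it stood CNOT6L and PARN with the same 55 reads, 4.81 RPM (3.63 to 6.27), then CNOT8 at 3.06 RPM (2.13 to 4.26) and PAN3 at 2.54 RPM (1.70 to 3.64), and the intervals of CNOT6L, PARN and CNOT8 overlapped, as did those of CNOT8 and PAN3. Of the paired nucleases, CNOT6 exceeded CNOT6L and CNOT7 exceeded CNOT8 in this library.

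The second siCtrl library gave another order. There CNOT7 led at 50.5 RPM (44.5 to 57.1), followed by PAN2 at 43.0 RPM (37.5 to 49.1), while CNOT6, CNOT2, CNOT1, CNOT6L and CNOT3 lay between 13.9 and 20.8 RPM with overlapping intervals. PAN2 had 217 reads there against 14 in the deeper siCtrl library of batch 1, a level 35.1-fold higher (95% interval 20.5 to 65.2). CNOT7 was 4.12-fold (3.34 to 5.10) and CNOT6L 3.37-fold (2.37 to 4.84) the level of batch 1, and CNOT6 0.259-fold (0.209 to 0.317) and CNOT2 0.292-fold (0.233 to 0.364). Such differences were common, since 59.5% of 9634 genes differed by more than 2-fold between the siCtrl libraries relative to the median gene, which itself changed by -0.39 on the log2 scale. The library protocol and the batch cannot be told apart here, and levels are compared below only within a table. Summed over the 10 genes, the level was 239 RPM in siCtrl of batch 1 and 192 RPM in siCtrl of batch 2, where PAN3 adds nothing.

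**Figure D1:**
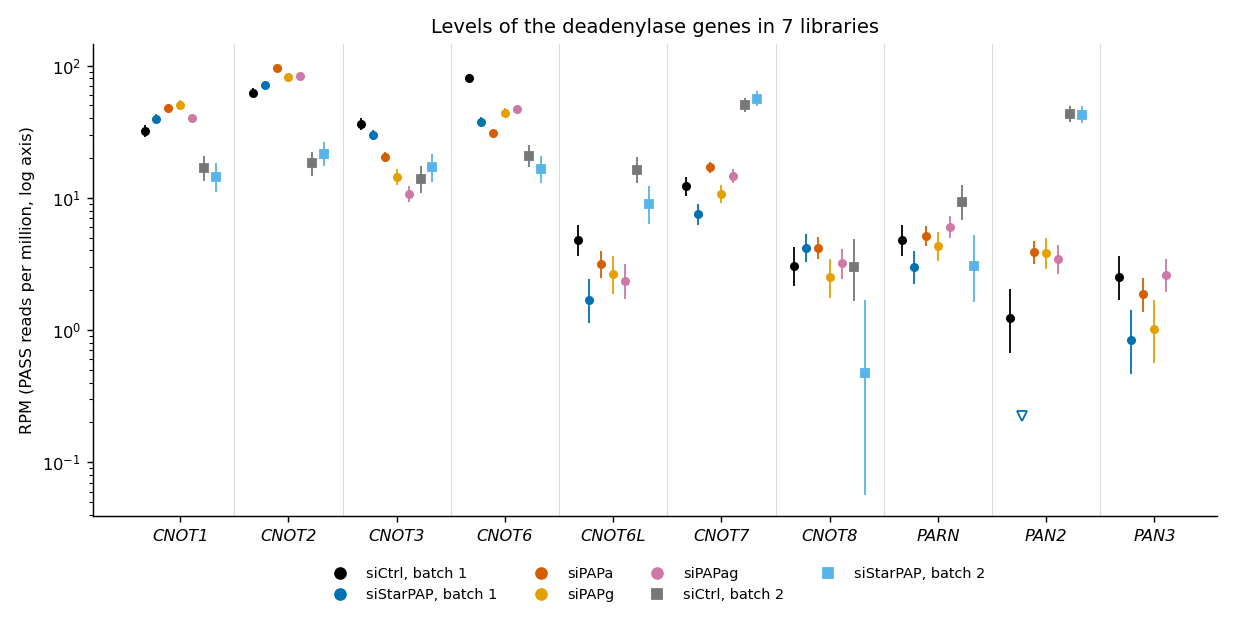
RPM of the 10 deadenylase genes on a log axis in the 7 libraries, circles for batch 1 and the double KD and squares for batch 2, with exact Poisson 95% intervals. The open triangle is the upper limit for PAN2 in siStarPAP of batch 1, where it had 0 reads, and the squares of PAN2, CNOT7 and CNOT6L lie above all circles of the same gene.

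CNOT1, the scaffold, had 363 reads in siCtrl of batch 1 (31.8 RPM), 656 in siStarPAP (39.6 RPM), 1193 in siPAPa (47.6 RPM) and 749 in siPAPg (50.6 RPM). In the table of the double KD it had 273 reads in siCtrl (23.9 RPM) and 755 in siPAPag (40.2 RPM). Both tables list 6 PASs of CNOT1, but not the same ones. All 4 knockdowns of batch 1 and the double table lay above their siCtrl, and the 61 reads of siStarPAP in batch 2 (14.4 RPM) lay below the 85 of siCtrl (16.8 RPM), with overlapping intervals. Relative to the median gene CNOT1 was 2.003-fold its siCtrl level in siPAPg (95% interval 1.76 to 2.28), just past the 2-fold limit used for calls, and 2.19-fold (1.91 to 2.53) in siPAPag. It was 1.79-fold (1.59 to 2.02) in siPAPa and 1.70-fold (1.49 to 1.94) in siStarPAP of batch 1. Without the centring on the median gene neither call stood, at log2 changes of 0.67 and 0.75. The siPAPg call was also lost with the totals of the table (0.94). Some reads of CNOT1 come from PASs that lie 4941, 9706 and 14942 bases past its annotated end, the nearest of them within another annotated gene on the same strand, and with the PASs of the 3′UTR alone, an alternative chosen after seeing the data, the ratios were 2.13 in siPAPg, 2.65 in siPAPag, 1.81 in siPAPa and 2.31 in siStarPAP of batch 1. On that count the ratio of siStarPAP in batch 1 also passed 2-fold, and that of batch 2 was 0.845 (0.573 to 1.23).

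CNOT2, which joins CNOT3 on the scaffold, had 712 reads in siCtrl (62.3 RPM), 1183 in siStarPAP (71.5 RPM), 2413 in siPAPa (96.2 RPM) and 1216 in siPAPg (82.2 RPM). In the double table the reads were 719 (62.9 RPM) and 1577 (83.9 RPM), and in batch 2 they were 92 in siCtrl (18.2 RPM) and 91 in siStarPAP (21.4 RPM). The level was above siCtrl in every knockdown, but no ratio relative to the median gene passed 2-fold, and they ran from 1.32 (0.974 to 1.78) in batch 2 to 1.85 (1.70 to 2.01) in siPAPa. CNOT3 took another course. It had 413 reads in siCtrl (36.1 RPM), 492 in siStarPAP (29.7 RPM), 508 in siPAPa (20.3 RPM) and 214 in siPAPg (14.5 RPM). The double table gave 414 reads in siCtrl (36.2 RPM) and 201 in siPAPag (10.7 RPM), and batch 2 gave 70 (13.9 RPM) and 72 (16.9 RPM). CNOT3 was at 0.385 of siCtrl relative to the median gene in siPAPag (0.324 to 0.457), past the limit, at 0.503 (0.424 to 0.595) in siPAPg, just inside it, and at 0.670 (0.587 to 0.764) in siPAPa. The siPAPg ratio passed the limit where it was not centred (-1.32 on the log2 scale). In siStarPAP of batch 1 the direction depended on the scaling, with a log2 change of 0.16 relative to the median gene and -0.28 without the centring.

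CNOT6 and CNOT6L are alternative CCR4-type nucleases of the complex. CNOT6 had 918 reads in siCtrl (80.3 RPM), 624 in siStarPAP (37.7 RPM), 770 in siPAPa (30.7 RPM) and 648 in siPAPg (43.8 RPM), so that the control stood above all 3 knockdowns without overlap of the intervals. The double table showed 937 reads in siCtrl (82.0 RPM) and 880 in siPAPag (46.8 RPM), and batch 2 showed 105 (20.8 RPM) and 70 (16.5 RPM) with overlapping intervals. Relative to the median gene CNOT6 passed 2-fold in siPAPa, at 0.457 (0.414 to 0.503), and the other ratios ran from 0.639 (0.577 to 0.709) in siStarPAP of batch 1 to 0.887 (0.646 to 1.21) in batch 2. The siStarPAP ratio of batch 1 passed the limit where it was not centred (log2 change -1.09) or scaled to the totals of the table (-1.02).

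CNOT6L had 55 reads in siCtrl (4.81 RPM), 28 in siStarPAP (1.69 RPM), 79 in siPAPa (3.15 RPM) and 39 in siPAPg (2.64 RPM). It had 44 reads in siPAPag (2.34 RPM), and in batch 2 it had 82 in siCtrl (16.2 RPM) and 38 in siStarPAP (8.94 RPM). In both batches the siStarPAP level was below siCtrl without overlap of the intervals. Relative to the median gene it was at 0.479 (0.292 to 0.768) in batch 1, past the limit, and at 0.617 (0.408 to 0.916) in batch 2. In siPAPag it was at 0.634 (0.417 to 0.960), and passed the limit only where it was not centred (log2 change -1.04).

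CNOT7 and CNOT8 are alternative CAF1-type nucleases. CNOT7 had 140 reads in siCtrl (12.3 RPM), 124 in siStarPAP (7.49 RPM), 427 in siPAPa (17.0 RPM) and 159 in siPAPg (10.7 RPM). The double table held 121 reads (10.6 RPM) and 274 (14.6 RPM), and batch 2 held 255 (50.5 RPM) and 238 (56 RPM). No ratio of CNOT7 passed the limit, and the highest was 1.80 (1.44 to 2.24) in siPAPag. CNOT8 had few reads throughout, with 35 in siCtrl (3.06 RPM), 69 in siStarPAP (4.17 RPM), 105 in siPAPa (4.19 RPM) and 37 in siPAPg (2.50 RPM). It had 31 (2.71 RPM) and 60 (3.19 RPM) in the double table, and 15 (2.97 RPM) and 2 (0.471 RPM) in batch 2, too few for a call there. None of its ratios with over 50 reads passed the limit.

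PAN2, the nuclease of the PAN2-PAN3 pair, had 14 reads in siCtrl of batch 1 (1.23 RPM), 0 in siStarPAP, 97 in siPAPa (3.87 RPM), 57 in siPAPg (3.85 RPM) and 65 in siPAPag (3.46 RPM). All 3 knockdowns of PAPa or PAPg lay above siCtrl with no overlap, and each passed the limit relative to the median gene, at 3.77 (2.14 to 7.16) in siPAPa, 3.95 (2.17 to 7.68) in siPAPg and 3.68 (2.04 to 7.10) in siPAPag. These comparisons share 1 siCtrl library and its 14 reads. Against this library PAN2 passed the filter of over 50 reads a pair only through its knockdown reads. It was thus tested only where it was higher, and the calls add no support to the ratios. The 0 reads of siStarPAP allow up to 0.181 RPM (3 reads), which is at least 6.76-fold lower than the level of siCtrl taken as measured. With the counting error of the 14 reads of siCtrl included, the exact 95% interval of the ratio relative to the median gene reached up to 0.284. With 14 reads in the pair the gene was below the limit of 50 for a call. Batch 2, with 217 reads in siCtrl (43.0 RPM) and 181 in siStarPAP (42.6 RPM), showed no such difference, at a ratio of 1.11 (0.906 to 1.36). PAN3, which tethers PAN2 to RNA, had 29 reads in siCtrl (2.54 RPM), 14 in siStarPAP (0.846 RPM), 47 in siPAPa (1.87 RPM) and 15 in siPAPg (1.01 RPM), and 49 in siPAPag (2.61 RPM). Its tested ratios were 0.882 (0.544 to 1.45) in siPAPa and 1.34 (0.829 to 2.20) in siPAPag.

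PARN had 55 reads in siCtrl (4.81 RPM), 50 in siStarPAP (3.02 RPM), 129 in siPAPa (5.14 RPM), 64 in siPAPg (4.33 RPM) and 113 in siPAPag (6.01 RPM), with no ratio past the limit. In batch 2 it fell from 47 reads in siCtrl (9.31 RPM) to 13 in siStarPAP (3.06 RPM), at 0.368 of siCtrl relative to the median gene (0.183 to 0.691). The ratio of batch 1 was 0.855 (0.571 to 1.28).

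Counted over the genes with over 50 reads in a pair, 0 were higher and 1 of 8 lower past 2-fold in siStarPAP of batch 1, where 10.9% of all genes tested were higher and 13.4% lower. In siPAPa 1 of 10 was higher and 1 lower (13.1% and 15.4% of all genes), and in siPAPg 2 of 9 were higher and 0 lower (10.2% and 12.1%). In siPAPag 2 of 10 were higher and 1 lower (13.6% and 16.1%), and in siStarPAP of batch 2, 0 were higher and 1 of 8 lower (5.72% and 8.62%). The higher genes of siPAPa, siPAPg and siPAPag include PAN2, which passed the read filter in these pairs only through its knockdown reads. Each of the counts was 2 or fewer. Their median log2 change relative to the median gene was -0.03 in siStarPAP of batch 1, 0.53 in siPAPa, 0.14 in siPAPg, 0.66 in siPAPag and 0.04 in siStarPAP of batch 2, beside 0 for all genes by construction. The balance of all genes moves with the scaling. Relative to the median gene 1095 were higher and 1349 lower in siStarPAP of batch 1, and 448 and 2637 without the centring. In the same order the numbers were 1416 and 1661 against 919 and 2388 in siPAPa, 1035 and 1228 against 576 and 2105 in siPAPg, 1361 and 1614 against 700 and 2656 in siPAPag, and 408 and 614 against 253 and 831 in siStarPAP of batch 2. With the totals of the tables as depth they were 509 and 2361 in siStarPAP of batch 1, 1130 and 2016 in siPAPa, and 244 and 862 in siStarPAP of batch 2.

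**Figure D2:**
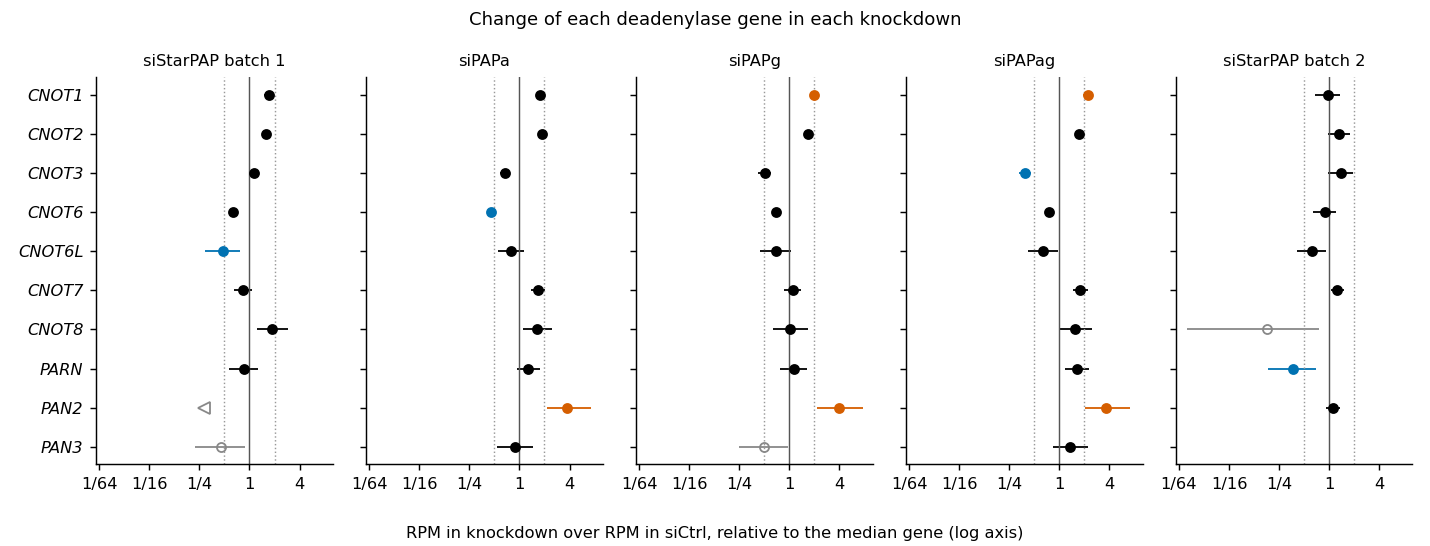
RPM in each knockdown over RPM in the siCtrl of the same table, divided by the ratio of the median gene, on a log axis with 95% counting intervals. Orange and blue points lie past 2-fold (dotted lines), grey open points had 50 reads or fewer in the pair, and the triangle is the upper limit of PAN2. PAN2 lies between 3.68 and 3.95 in the 3 knockdowns of PAPa or PAPg, and CNOT3 at 0.385 in siPAPag.

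Over both batches, edgeR's quasi-likelihood test with batch as a block called 141 genes higher (1.21% of the 11614 tested) and 125 lower (1.08%) in siStarPAP at an adjusted p below 0.05, with 2 libraries a group. None of the 9 deadenylase genes tested was among them. By edgeR 0 of the 9 had an unadjusted p below 0.05, and by DESeq2 the number was also 0, both adjusted and unadjusted. The lowest adjusted p-values were those of CNOT6L, with a log2 fold change of -0.83 ± 0.47 (SE; edgeR adjusted p = 0.430), and CNOT2, at 0.58 ± 0.34 (edgeR adjusted p = 0.442). PARN was at -0.73 ± 0.59 (edgeR adjusted p = 0.612) and CNOT6 at -0.38 ± 0.34 (edgeR adjusted p = 0.661). CNOT1, at 0.43 ± 0.37 (edgeR adjusted p = 0.636), combined values of opposite sign in the 2 batches relative to the median gene, as did CNOT7 at 0.08 ± 0.35 (edgeR adjusted p = 0.951) and CNOT8 at -0.24 ± 0.91 (edgeR adjusted p = 0.937). CNOT3 was at 0.34 ± 0.36 (edgeR adjusted p = 0.708) and PAN2 at -0.63 ± 0.58 (edgeR adjusted p = 0.670). For PAN2 this value combined 14 reads in siCtrl and 0 in siStarPAP of batch 1 with 217 and 181 in batch 2. The fit had 1 residual degree of freedom.

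**Figure D3:**
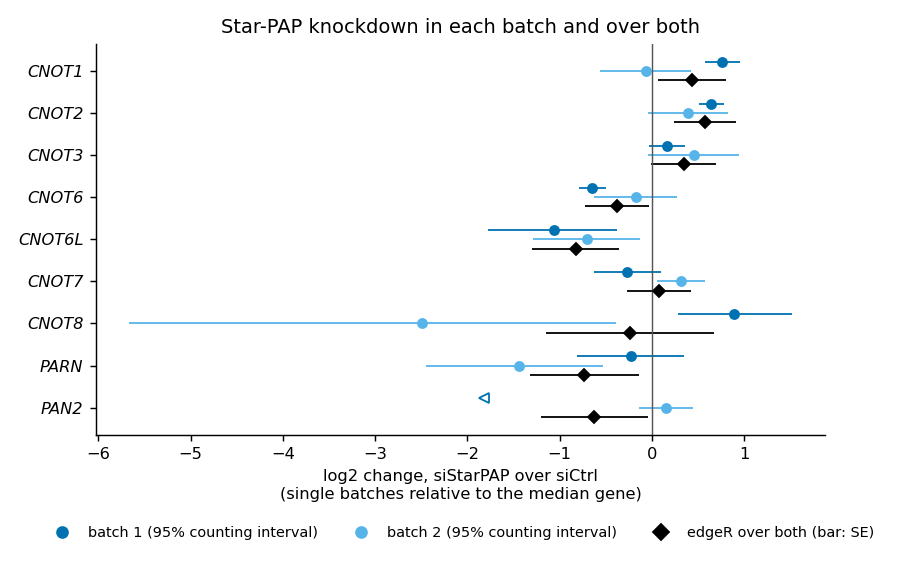
log2 change of 9 deadenylase genes in siStarPAP over siCtrl in batch 1 and batch 2 (circles, relative to the median gene, 95% counting intervals) and in the edgeR fit over both (diamonds, bars are SE). The triangle marks the upper limit of PAN2 in batch 1. CNOT2, CNOT3, CNOT6, CNOT6L and PARN lie on the same side of 0 in both batches, and CNOT1, CNOT7 and CNOT8 on opposite sides. The PAN2 limit of batch 1 lies below 0 and its value of batch 2 above, with an interval that spans 0.

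The use of PASs was compared as the share of the reads of a gene at each of its sense PASs, with two-sided Fisher's exact tests on the reads of 2 libraries. A PAS was called at an adjusted p below 0.05 over all PASs of the pair together with a change of at least 10 percentage points. These tests compare libraries and take in no spread between replicates. In siStarPAP of batch 1, 7 of 35 PASs of the deadenylase genes were called (20%), where 26.0% of all PASs tested were. The numbers were 9 of 43 (20.9%) in siPAPa against 26.5% of all, 6 of 36 (16.7%) in siPAPg against 19.1%, 17 of 50 (34%) in siPAPag against 23.2%, and 2 of 31 (6.45%) in siStarPAP of batch 2 against 6.21%. By gene, 9 of 10 had a called PAS in siPAPag, where 52.3% of all genes tested did, and 4 of 7, 4 of 9 and 4 of 8 in siStarPAP of batch 1, siPAPa and siPAPg, where 56.2%, 57.6% and 46.7% of all genes did. In siStarPAP of batch 2 it was 1 of 8 against 16.0%.

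In CNOT6 the proximal PAS, 1533 bases upstream of the distal one in the same 3′UTR, held 256 of 918 reads in siCtrl of batch 1 (27.9%), 157 of 624 in siStarPAP (25.2%), 223 of 770 in siPAPa (29%) and 121 of 648 in siPAPg (18.7%). In the double table it held 256 of 937 in siCtrl (27.3%) and 128 of 880 in siPAPag (14.5%). The distal PAS moved the other way, from 580 reads in siCtrl (61.9%) to 672 in siPAPag (76.4%). Only the double KD was called, with a fall of 12.8 points at the proximal PAS (Fisher's exact test, adjusted p = 4.49e-10) and a rise of 14.5 points at the distal PAS (exact test, adjusted p = 5.84e-10). In siPAPg the changes of -9.21 and 7.96 points stayed below the limit of 10. Batch 2 used the PASs in another proportion, with 56.2% of 105 reads at the proximal and 24.8% at the distal PAS in siCtrl, and 44.3% and 21.4% of 70 reads in siStarPAP.

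In CNOT1 the distal PAS of the 3′UTR took 148 of 363 reads in siCtrl (40.8%), 380 of 656 in siStarPAP (57.9%), 513 of 1193 in siPAPa (43.0%) and 347 of 749 in siPAPg (46.3%). It rose by 17.2 points in siStarPAP (Fisher's exact test, adjusted p = 2.45e-06), and by 18.8 points in siPAPag, from 148 of 273 reads (54.2%) to 551 of 755 (73.0%; exact test, adjusted p = 3.65e-07). These shares count all sense PASs of the gene, also those past its annotated end. Of the reads at 3′UTR PASs alone, the distal PAS had 148 of 198 in siCtrl and 380 of 486 in siStarPAP. In the double table it had 148 of 204 in siCtrl and 551 of 681 in siPAPag. A shift within the 3′UTR alone was not tested. The internal PAS near the 5′ end fell from 48 reads (13.2%) to 21 (3.20%) in siStarPAP (exact test, adjusted p = 1.13e-07). It held 18.4% in siPAPa and 21.0% in siPAPg, and in the double KD it went from 17.6% in siCtrl to 9.40% in siPAPag (a change of -8.18 points; exact test, adjusted p = 0.00273), and none of these was called. In batch 2 the proximal PAS led, with 57 of 85 reads in siCtrl (67.1%) and 32 of 61 in siStarPAP (52.5%), and the distal PAS held 20% and 24.6%. CNOT2, by contrast, had 97.8% or more of its reads at 1 PAS, at the annotated end of its 3′UTR, in every library. The table of batch 1 lists only this PAS, so the share there is 100% by the listing and was not tested. The double table lists 4.

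CNOT3 had 94.9% of its reads at the PAS of the last exon in siCtrl of batch 1. This share was 91.5% in siStarPAP, 91.9% in siPAPa and 81.3% in siPAPg, where it was called (Fisher's exact test, adjusted p = 2.79e-06). In siPAPag it fell from 94.7% to 80.6% (exact test, adjusted p = 2.08e-06), while the second internal PAS rose from 8 of 414 reads (1.93%) to 35 of 201 (17.4%; exact test, adjusted p = 2.78e-10). In siStarPAP of batch 2 the last exon went from 63 of 70 reads (90%) to 45 of 72 (62.5%; exact test, adjusted p = 0.00450) and the first internal PAS from 7 reads (10%) to 24 (33.3%; exact test, adjusted p = 0.0180). CNOT3 was not called in siStarPAP of batch 1. There the first internal PAS, listed 19 bases away, went from 13 of 413 reads (3.15%) to 12 of 492 (2.44%). The second internal PAS went from 8 reads (1.94%) to 30 (6.10%). The difference between the batches was not tested.

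PARN in siCtrl of batch 1 had 25 of 55 reads at the proximal PAS of the 3′UTR (45.5%) and 4 at the distal PAS (7.27%). The proximal PAS held 28% in siStarPAP, 39.5% in siPAPa, 59.4% in siPAPg and 52.2% in siPAPag, with no call. An intronic PAS rose from 0 reads in siCtrl to 17 of 129 in siPAPa (Fisher's exact test, adjusted p = 0.0122). The distal PAS was called in all 4 knockdowns of batch 1 and the double table, at 36% in siStarPAP (adjusted p of the exact test 0.00278), 28.7% in siPAPa (0.00397), 31.2% in siPAPg (0.00710) and 26.5% in siPAPag (0.0132). These calls rest on the same 55 reads of 1 siCtrl library, and the shares of all PASs of a gene, of which not all are given here, sum to 100%. In batch 2 the distal PAS had 0 of 47 reads in siCtrl and 3 of 13 in siStarPAP, and the fit of PAS use over both batches (diffSpliceDGE of edgeR) gave this PAS the lowest p of the deadenylase genes, 0.0471 unadjusted and 1.00 adjusted. That fit called 4 of 14981 PASs (0.0267%) and none of the 18 of these genes. Of the 18 PASs, 1 had an unadjusted p below 0.05, and no other tool was run on PAS use over both batches.

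In siCtrl of batch 1, 15 of the 140 reads of CNOT7 (10.7%) came from a PAS at -12955 bases from its main PAS, where minus is upstream, in an exon of a non-coding transcript. That PAS had 1 read of 124 in siStarPAP, 2 of 427 in siPAPa, 0 of 159 in siPAPg and 0 of 274 in siPAPag, and it was called in siPAPa, siPAPg and siPAPag. These calls rest on the same 15 reads of 1 siCtrl library. In batch 2 this PAS had 0 of 255 reads in siCtrl and 2 of 238 in siStarPAP. The main PAS rose from 65.7% to 83.8% in siPAPa (Fisher's exact test, adjusted p = 8.41e-05) and to 82.4% in siPAPg (exact test, adjusted p = 0.00770), and from 76.0% to 90.1% in siPAPag (exact test, adjusted p = 0.00233). In batch 2 the main PAS held 94.9% of reads in siCtrl and 94.5% in siStarPAP.

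CNOT6L spread its few reads over many PASs. The proximal PAS of the 3′UTR had 17 of 55 reads in siCtrl (30.9%), 4 of 28 in siStarPAP (14.3%), 2 of 79 in siPAPa (2.53%), 5 of 39 in siPAPg (12.8%) and 0 of 44 in siPAPag, and the falls in siPAPa (Fisher's exact test, adjusted p = 3.23e-05) and siPAPag (exact test, adjusted p = 0.000127) were called. The intronic PAS had 0 reads in siCtrl, and 5 in siStarPAP, 25 in siPAPa, 3 in siPAPg and 7 in siPAPag, with calls in all but siPAPg. In batch 2 the proximal PAS held 64.6% in siCtrl and 57.9% in siStarPAP, and the intronic PAS was not listed. CNOT8 had most reads at the end of its 3′UTR, 68.6% in siCtrl of batch 1, and 77.4% in siCtrl against 95% in siPAPag in the double table, and its called PASs had 4 reads each in siCtrl and 0 in the knockdowns. PAN2 had 11 of 14 reads at its main PAS in siCtrl (78.6%), 92 of 97 in siPAPa (94.8%), 46 of 57 in siPAPg (80.7%), 56 of 65 in siPAPag (86.2%) and 217 of 217 in siCtrl of batch 2, and its single called PAS fell from 3 reads to 0. PAN3 had 26 of 29 reads at the end of its 3′UTR in siCtrl (89.7%) and 27 of 49 in siPAPag (55.1%; exact test, adjusted p = 0.00859), where 2 intronic PASs had 9 and 13 reads.

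**Figure D4:**
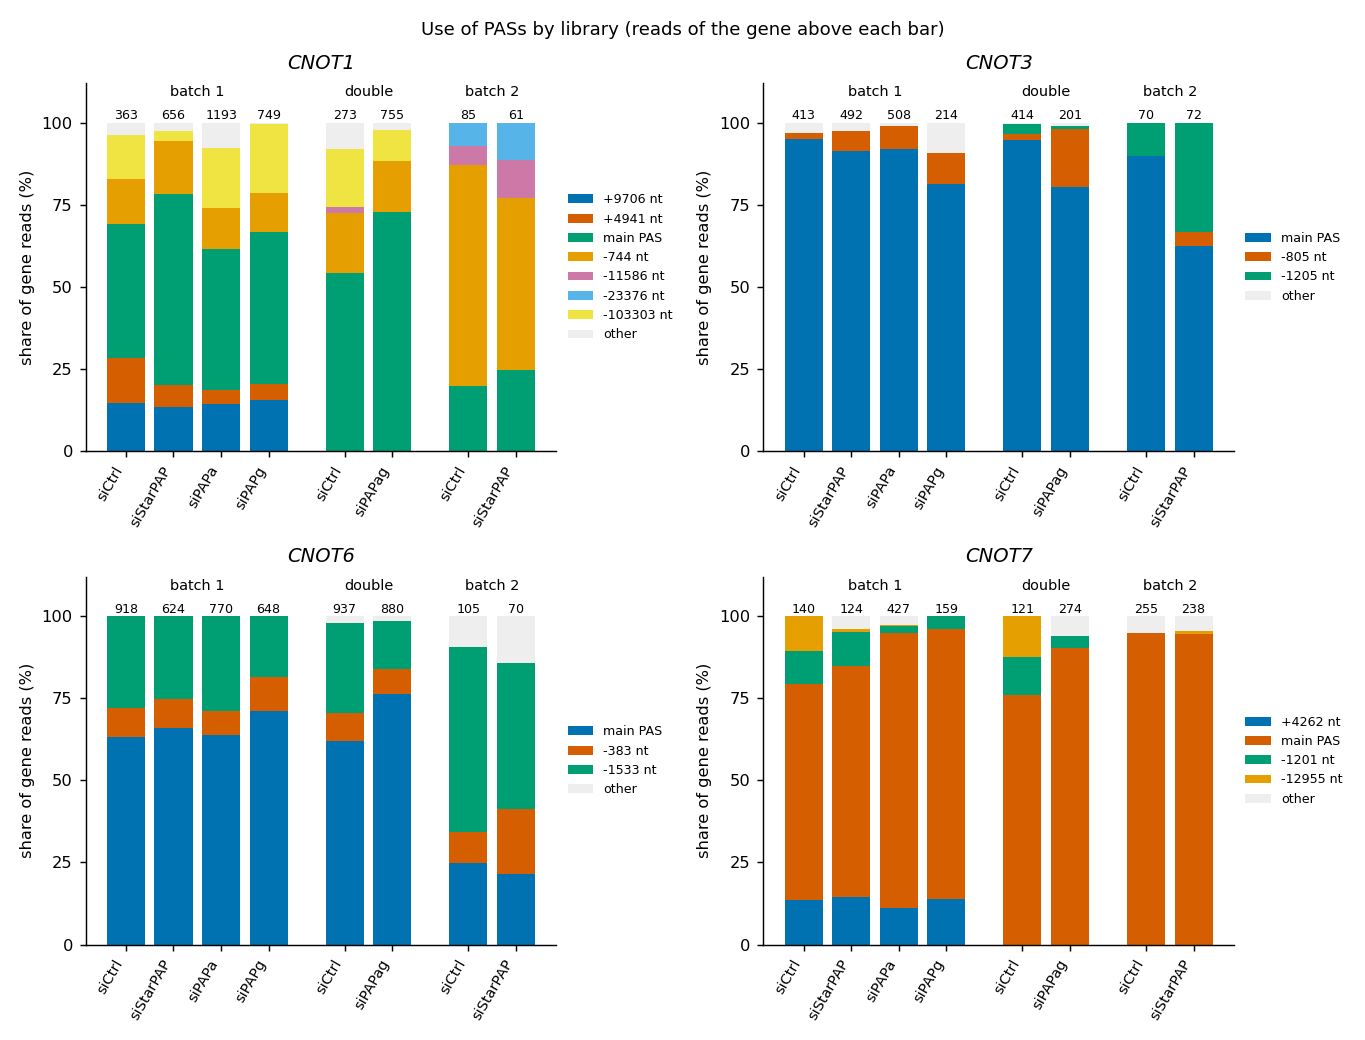
Share of the reads of CNOT1, CNOT3, CNOT6 and CNOT7 at each PAS in each library, with PASs named by their distance from the PAS with most siCtrl reads (positive is downstream) and the reads of the gene above each bar. The siCtrl bars of batch 1 and of the double KD are 1 library with other PASs listed. The distal CNOT6 PAS holds 61.9% in siCtrl and 76.4% in siPAPag, and in batch 2 other PASs lead in CNOT1 and CNOT6.

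The ratio of the distal to the proximal of the 2 most read last-exon PASs was summarised as RED, the log2 ratio in the knockdown minus that in siCtrl, with 1 read added to each count. In siPAPag 6 of 8 deadenylase genes passed a RED of 1 in size, 5 of them towards the distal PAS, where 59.3% of all genes passed it in either direction, 2193 towards the distal and 1333 towards the proximal PAS. CNOT6 had a RED of 1.21 there, CNOT7 1.86, CNOT8 2.21, CNOT6L 3.55 and PARN 1.43. CNOT3, whose pair lies 34 bases apart, was at -1.27, with 2 reads at its proximal PAS in both siCtrl and siPAPag. The proximal PAS of CNOT8 had 3 reads in siCtrl and 1 in siPAPag. PARN was also past the limit in siStarPAP of batch 1 (2.72), siPAPa (1.93) and siPAPg (1.49), and CNOT6L in the same 3 (1.57, 3.15 and 1.38). In these the numbers were 2 of 6, 4 of 7 and 2 of 6, against 53.3%, 56.2% and 48.9% of all genes, and in siStarPAP of batch 2 0 of 4 against 39.9%. CNOT8 (1.04, with 3 proximal reads in siCtrl and 6 in siPAPa) and PAN3 (-2.13, with 0 and 5) were the others in siPAPa. With over 200 reads required, no gene of this group passed in siStarPAP of batch 1, siPAPa or siPAPg, and 3 did in siPAPag (CNOT3, CNOT6 and CNOT7). This filter sums the reads of both PASs, so CNOT3 met it through its distal PAS, with 2 proximal reads in each library.

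Beside the 10 genes, 32 genes of the same pathway were followed, namely other CCR4-NOT subunits, other deadenylases, adaptors that bring these enzymes to RNA, and factors of decapping and 5′ decay. Past 2-fold relative to the median gene, 3 of 22 tested were higher and 3 lower in siStarPAP of batch 1 (10.9% and 13.4% of all genes). The numbers were 4 of 25 and 0 in siPAPa (13.1% and 15.4%), and 4 of 23 and 2 in siPAPg (10.2% and 12.1%). They were 5 of 23 and 3 in siPAPag (13.6% and 16.1%), and 3 of 18 and 2 in siStarPAP of batch 2 (5.72% and 8.62%). The same 4 genes were higher in siPAPa, siPAPg and siPAPag, which share a siCtrl library. CNOT10, a partner of the N-terminal part of CNOT1, had 478 reads in siCtrl and 3274 in siPAPa, and was at 3.73, 2.12 and 3.02 relative to the median gene. EDC4, a scaffold of decapping, had 487 reads in siCtrl and 5109 in siPAPa and was at 5.71, 3.91 and 4.6. EDC3, another enhancer of decapping, was at 3.47, 2.76 and 3.28, and BTG2, which links RNA to the CAF1 nucleases, at 2.55, 5.56 and 4. In siStarPAP of batch 1 CNOT10 was at 2.41, EDC3 at 2.44 and EDC4 at 2.09, and in batch 2 CNOT10 was at 0.745 (0.452 to 1.21) and EDC4 at 1.62 (1.21 to 2.19). BTG2 had 22 reads in siCtrl and 5 in siStarPAP of batch 1, too few for a call (0.214, 0.0632 to 0.578), and was higher in batch 2 at 3.16 (1.72 to 6.07). EDC3 had too few reads for a call in batch 2, at 1.82 (0.969 to 3.48).

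Over both batches, where 1.21% of all genes rose and 1.08% fell by edgeR, 1 of 29 pathway genes tested rose and 0 fell. It was ZFP36L2, which directs CCR4-NOT to AU-rich RNAs. It had 3 reads in siCtrl and 31 in siStarPAP of batch 1, and 63 and 164 in batch 2, a log2 fold change of 2.23 ± 0.48 (SE, 2 libraries a group; edgeR adjusted p = 0.0180, DESeq2 adjusted p = 0.00961). ANGEL2, a relative of the CCR4 nucleases named after its values were seen, was below siCtrl past 2-fold in both batches, at 0.496 (0.440 to 0.559) and 0.361 (0.287 to 0.450), and missed the threshold over both (edgeR adjusted p = 0.0755, DESeq2 adjusted p = 0.0626).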

How the data were processed

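Total RNA of HEK293 cells was read by 3′READS (batch 1 and the double KD) or 3′READS+ (batch 2). Per the study's methods, alignment used Bowtie2 and hg19, and uniquely aligned PASS reads were clustered into PASs within 24 nt. The authors deposited raw counts of these reads, with no normalization at each listed PAS. Each knockdown was compared with the siCtrl of its own table, since PASs were listed per table. The siCtrl counts were equal at 37 of 37 PASs of the deadenylase genes found in both tables. RPM used the PASS totals that the study gives per library, and ratios were divided by that of the median gene with over 50 reads in the pair. Intervals on ratios are exact conditional binomial and those on levels exact Poisson, both at 95%. A count of 0 was read as up to 3 reads. Reads carry no molecular identifiers, so intervals and exact tests cover counting error only.

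siStarPAP was tested over both batches with edgeR 4.0.16 (quasi-likelihood, TMM, filterByExpr) in R 4.3.3, with batch as a block because the labels name the batches and each has its own siCtrl, on genes listed in both tables. DESeq2 1.42.0 was an alternative. PASs at most 24 nt apart were joined for diffSpliceDGE. PAS use was tested with Fisher's exact test in scipy 1.17.1. Where nothing says that libraries came from separate cultures, p-values measure only the spread between these libraries. The steps were tested on simulated data.

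All 10 deadenylase genes are named, and pathway genes were named when they passed the edgeR test or lay past 2-fold in the same direction in siPAPa, siPAPg and siPAPag. The genes, the lists and the tests were chosen with earlier results of these data known. Annotation came from GENCODE lifted to GRCh37. Upstream antisense PASs were left out of the main values. Alternatives covered the scaling, filters, limits, pseudocount, the joining of PASs, the block and leaving out each batch. Not all PASs of these genes, nor all calls among them, are reported here.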

Additional observations from a re-analysis of the deposited data

Results flagged for a closer look

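CNOT8 moved in opposite directions in siStarPAP of the 2 batches. Relative to the median gene it was at 1.85 of siCtrl in batch 1 (95% counting interval 1.22 to 2.87, 35 and 69 reads) and at 0.177 in batch 2 (0.0197 to 0.763, 15 and 2 reads). Each batch has 1 library of either condition, so the difference between the batches was not tested. The 17 reads of batch 2 are below the limit of 50 used for calls.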

How the results depend on the processing

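Of 365 ratios of single deadenylase genes under the other settings 338 moved by less than their interval and 27 by more, and none changed the sign of a call. The 338 include the ratios under the 1.5-fold limit, which alters the calls only, so those ratios could not move. The genes past the limit were 1 in siStarPAP of batch 1, and 2 without the centring, with the table totals, with no filter on reads or with antisense PASs included. With no filter they were 2 instead of 1 in siStarPAP of batch 2. At 1.5-fold they were 5 (siStarPAP, batch 1), 6 (siPAPa), 4 (siPAPg), 8 (siPAPag) and 2 (siStarPAP, batch 2). Without the filter 4079, 4632, 3784, 4610 and 3292 of all genes passed in these pairs, of 13159, 13705, 13552, 13074 and 12476 tested. At 1.5-fold 4881, 5612, 4639, 5335 and 2601 passed, of 10079, 10808, 10163, 10022 and 7127. With antisense PASs included 2460 of 10213 passed in siStarPAP of batch 1, against 2444 of 10079 at the main setting.

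PASs of deadenylase genes called in the same order of pairs were 7, 9, 6, 17 and 2. Demanding 10 points alone gave 12, 14 and 12 in the first 3 and 10 in the last, and an adjusted p alone gave 13 in siPAPg. At 20 points they were 2, 4, 2 and 5 in the first 4, and with over 200 reads 2, 2, 3, 7 and 0. Of all PASs, 8077, 9063, 6006, 7813 and 1210 were called, of 31038, 34259, 31501, 33678 and 19497 tested. An adjusted p alone gave 12372, 14128, 9207 and 13014 in the first 4. With 10 points alone the numbers were 11697, 12625 and 10137 in the first 3 and 4828 in the last. At 20 points they were 3938, 4513, 2869, 4043 and 734. With over 200 reads they were 3558, 4990, 3080, 3945 and 545, of 14826, 18533, 14620, 19343 and 7151 tested. For RED, over 200 reads left 0 genes in siStarPAP of batch 1, siPAPa and siPAPg, and 3 in siPAPag. Without a pseudocount 2 remained past it in siPAPa, and the outermost PASs gave 3 in siPAPag. Batch 2 had 1 in place of 0 with the outermost PASs or at 1.5-fold. Over 200 reads left 1365, 1945, 1303, 1947 and 506 of all genes past the RED limit, of 3107, 3811, 3154, 3614 and 1605 tested. At the main setting 3110, 3669, 2904, 3526 and 1523 passed it.
Without a pseudocount 2925 of 5473 genes tested passed in siPAPa. The outermost PASs gave 938 of 2485 in the last pair and 2290 of 4031 in siPAPag, and 1.5-fold gave 2304 of 3815 in the last.

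Over both batches, the fit with no filter called 224 genes higher and 249 lower. The fit without the replicate block on batch (edgeR) called 0 genes higher and 0 lower and 0 PASs, where the block gave 141, 125 and 4, and it turned CNOT8 to 0.053 and PAN2 to 0.13 on the log2 scale. DESeq2 called 279 genes. No deadenylase gene was called in any of these fits. Leaving out a batch leaves 1 library a group, a value with no test, given above as the values of each batch. Depth left PAN2 and PAN3 in siStarPAP of batch 1, PAN3 in siPAPg and CNOT8 in siStarPAP of batch 2 at or under 50 reads a pair and untested.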
